A study of Mus musculus with 20 samples.

Results

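The last time point of a differentiation course was compared between SmcHD1 KO and wild-type (WT) cells by allele-specific ATAC-seq, which measures how open the chromatin of each parental X chromosome is. The members were chosen by day and file alone, as every chromosome X peak with a day 15 allelic ratio, 390 peaks in the Dom table and 583 in the Cast table, of which 345 overlapped between the tables by at least 50% of the shorter peak. All 345 had the same coordinates in both tables, while 45 Dom and 238 Cast peaks had no partner. The day 15 libraries were 4 of the 20 in the series, 1 for each line. All lines were XX hybrid mouse embryonic stem cells (M.m.Domesticus x M.m.Castaneous) with a doxycycline-inducible Xist on one X, given 1 µg/ml doxycycline throughout differentiation to neural precursor cells (NPCs), WT included. In the Dom background (iXist-ChrX-Dom) Xist is on the Domesticus X, and WT was set against SmcHD1 KO-A3. In the Cast background (iXist-ChrX-Cast) Xist is on the Castaneous X, and WT was set against SmcHD1 KO-D5. Each KO is a single clone. By the protocol a homogeneous NPC population is established around day 15 or shortly after, and the background and the strain of the Xist-bearing X cannot be told apart. NPC markers could not be checked, since the tables hold ratios for chromosome X only.

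Xist RNA coats the X that expresses it and starts its silencing in cis. SmcHD1 is a non-canonical SMC protein that joins the inactive X (Xi) late and is needed for the lasting silencing of many X-linked genes, while the other X (Xa) stays active. YY1 is a zinc finger transcription factor bound at many housekeeping promoters, and peaks here carry the mark of overlap with its ChIP-seq peaks. The allelic ratio, Xi/(Xi + Xa), is 0.5 where both chromosomes are equally open and 0 where all signal comes from Xa. In these bulk samples, Xi open in few cells and Xi partly open in all cells cannot be told apart. The tables give no fragment counts, so the depth behind each ratio is unknown, and a KO minus WT difference of 0.1 was taken as the limit of size.

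The letters AANATGGC, the core of the YY1 motif, were searched on both strands of the mm10 reference (RefSeq GRCm38.p6), which is not the sequence of either hybrid parent. The central 300 bp held them at 31 of 345 shared peaks (8.99%), at 13 of the 55 peaks higher in KO in both backgrounds (23.6%) and at 3 of the 83 higher in Dom alone by the limit of size (3.61%). Over whole peaks, which differ in length, the numbers were 88 (25.5%), 26 (47.3%) and 18 (21.7%). Sequences of 30 bases around the match nearest the peak centre are shown for the 6 of the 10 peaks with the largest differences in both backgrounds that held one, followed by both matches among the 10 with the largest excess in Dom, with the motif in capitals and read 5′ to 3′ on the strand given.
Rpl10, chrX:74270585-74270614, plus strand: gctctccgcccAATATGGCcaggcggaagc
Hcfc1, chrX:73966958-73966987, minus strand: cttcttcacacAAGATGGCggctcccaggg
Htatsf1, chrX:57053296-57053325, plus strand: cccacctccccAAGATGGCgcctgccgcaa
Stag2, chrX:42149684-42149713, plus strand: aggtaagttatAAAATGGCggaggcgaagc
Gm6787, chrX:8096648-8096677, minus strand: tggaacgtcccAAGATGGCcgccctccgca
Nlgn3 (distal), chrX:101332441-101332470, minus strand: cccctggcaggAAGATGGCgtttgccgtca
Mir5132 (distal), chrX:74008091-74008120, minus strand: gtcaatgacacAAAATGGCtttacagaacg
Pls3 (distal), chrX:75829454-75829483, minus strand: ctgcttgaaacAAAATGGCcttaagctcat
The matches shown for Rpl10, Hcfc1 and Gm6787 lie in the central 300 bp. The others lie outside it, 166 to 393 bp from the peak centre, and enter only the counts over whole peaks. The first 6 sequences lie in peaks with the YY1 mark and the last 2 in peaks without it. These are matches of letters, and binding at them was not measured here.

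On day 15 the Xi of KO-A3 was more open than that of its WT line across much of the Dom table, whereas in the Cast table fewer peaks were higher in KO-D5 and more were lower. In Dom, 160 of 390 peaks were at least 0.1 higher in KO (41% of all peaks) and 18 at least 0.1 lower (4.62%). In Cast, 134 of 583 were higher (23%) and 88 lower (15.1%). With each table's day 0 difference subtracted, 180 were higher and 61 lower in Dom, and 177 higher and 137 lower in Cast. Before induction, on day 0, the same limit was passed by 72 peaks in each direction in Dom and by 88 upwards and 90 downwards in Cast. The day 15 excess of higher over lower peaks was thus absent on day 0 in both tables, and each table on its own has no replicate.

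At the shared peaks, the median allelic ratio was 0.0667 in Dom WT and 0.167 in KO-A3, and 0.0526 in Cast WT and 0.0847 in KO-D5. Both KO medians lay above both WT medians, with a mean difference of 0.0661, but 2 lines against 2 cannot give a 2-sided exact permutation p below 0.333, the value found. The median over single peaks of KO minus WT was 0.069 in Dom and 0.0127 in Cast. On day 7 these medians had been 0.073 and 0.0852, so the Cast difference was smaller on day 15 while the Dom difference was of similar size. A peak's ratio was exactly 0 at 60 Dom peaks in WT and 18 in KO-A3, while in Cast it was 0 at 171 peaks in WT and at 99 in KO-D5. On day 7 the latter counts had been 82 and 27, and the part of these zeros in the Cast differences was not tested.

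The 218 Cast peaks beyond the last Dom peak, at 103.5 Mb, could be followed in the Cast table alone. Of these, 50 were higher in KO-D5 by the limit (22.9%) and 30 lower (13.8%), against 84 (23%) and 58 (15.9%) of the 365 up to that point. Both shares were thus close on either side of this point. The largest differences outside the shared set were at the promoter of Huwe1, a ubiquitin ligase (151802706 to 151804337, 5′ UTR), at 0 in WT and 0.383 in KO-D5, and at that of Rlim, the ligase that activates Xist (103980065 to 103982855), at 0.069 and 0.439. Distal peaks near Txlng, Mir6384 and Pak3 followed, with differences between 0.333 and 0.35.
In Dom, the largest outside the shared set were a distal peak near 4933402E13Rik, at 0 in WT and 0.333 in KO-A3, and then peaks near Taf1, near Glod5, near Gk and at Srpk3, with differences between 0.271 and 0.286. The lowest Dom peak, near Gm14635, had 0.667 in WT and 0.167 in KO-A3. The others among the 5 lowest were near Gm35612 and Bcor, at the Srpx promoter and near Stard8, at -0.392 to -0.2. The 5 lowest Cast peaks, near 4930402K13Rik, at Irs4, near Klf8, near Dusp9 and near Ddx3x, had WT ratios of 0.667 to 1 on day 15 and of 0 to 0.0625 on day 7.

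**Figure D1:**
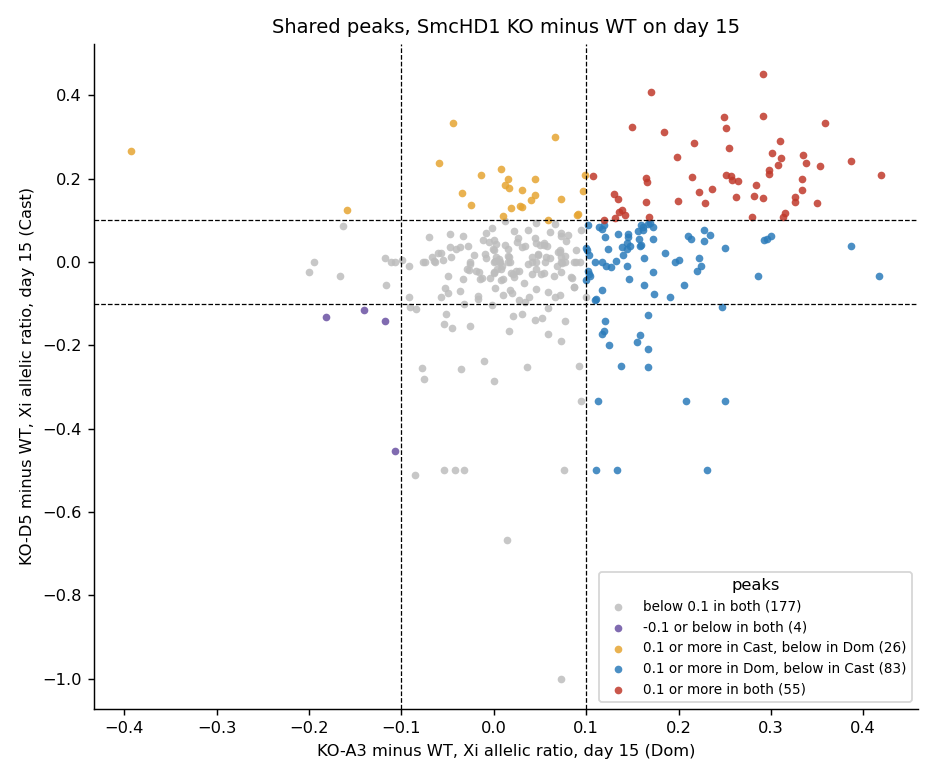
Each point is 1 of the 345 shared peaks, with KO-A3 minus WT in Dom on the x axis and KO-D5 minus WT in Cast on the y axis, both as differences in Xi allelic ratio on day 15, and dashed lines at the limit of 0.1 in each direction. The 55 red peaks passed 0.1 in both backgrounds, the 83 blue peaks in Dom alone and the 26 yellow peaks in Cast alone, and the points far below 0 in Cast have no counterpart as low in Dom.

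In both backgrounds, 55 shared peaks were at least 0.1 higher in KO (15.9% of 345), and 4 were at least 0.1 lower (1.16%). On day 0 the rule of both higher was met by 14 of all 345 shared peaks (4.06%) and by 2 of these 55 (3.64%). The 55 were mostly YY1-binding promoters, 41 of 55 (74.5%) against 137 of all 345 (39.7%), and 49 of them carried the YY1 mark (89.1%, against 57.1% of all). Their median ratio was 0.0488 in Dom WT and 0.333 in KO-A3, and 0.029 in Cast WT and 0.239 in KO-D5. Among the shared YY1-binding promoters 41 of 137 were higher in both (29.9%), among non-YY1 promoters 4 of 61 (6.56%), among YY1-binding distal peaks 8 of 60 (13.3%) and among non-YY1 distal peaks 2 of 87 (2.3%). The 6 without the mark were the promoters of Ftsj1, Emd, Dnase1l1 and Las1l and distal peaks near Gm6592 and 2010204K13Rik. Just inside the limit stood the promoters of Tmem28 and Fam50a, with the smaller of both differences at 0.1 and 0.106.

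The plainest case was the Rpl10 promoter, whose gene product is a component of the large ribosomal subunit (74269766 to 74271372). Its ratio was 0.0068 in Dom WT, 0.366 in KO-A3, 0.0171 in Cast WT and 0.351 in KO-D5. Both WT ratios were close to 0 and both KO ratios far above them, with no overlap.
At the promoter of Pin4, a parvulin prolyl isomerase (102118921 to 102119791), the ratio was 0.0469 in Dom WT, 0.339 in KO-A3, 0.0339 in Cast WT and 0.384 in KO-D5. At that of Stag2, a subunit of cohesin (42148652 to 42151078, intron), it was 0.0417, 0.333, 0.0714 and 0.522 in the same order, with the highest KO-D5 value of the 10 leading peaks. Hcfc1, a cofactor that links transcription factors to chromatin-modifying enzymes (73965671 to 73968116), had 0.0463, 0.347, 0.029 and 0.29. In each of these promoters the groups did not overlap, which held for 52 of the 55 peaks and for 111 of all 345 (32.2%), with 19 separated in the opposite direction (5.51%).

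Taf1, the largest subunit of TFIID (101532275 to 101533303, 5′ UTR), had 0.0841 in Dom WT, 0.333 in KO-A3, 0.0133 in Cast WT and 0.36 in KO-D5. Htatsf1, a splicing factor (57052843 to 57054298, 5′ UTR), had 0.0355, 0.346, 0.0435 and 0.292, and Rpgr, a protein of the ciliary transition zone (10216053 to 10217022, intron), 0.0899, 0.344, 0 and 0.273. The promoter of Gm6787 (8096151 to 8097379) had 0.092, 0.427, 0.0152 and 0.272. These 4 promoters all had WT ratios of 0.092 or less and KO ratios between 0.272 and 0.427.
Distal peaks were rare in this group, but 2 were among the 10 leading peaks, both with the YY1 mark. The one 32989 bp from the TSS of Nlgn3, a synaptic adhesion protein (101332168 to 101333406, intergenic), had 0.0329 in Dom WT, 0.343 in KO-A3, 0.0297 in Cast WT and 0.32 in KO-D5. The other, 90046 bp from 4933407K13Rik (75673286 to 75674653, intergenic), had 0.133, 0.384, 0.019 and 0.34.

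**Figure D2:**
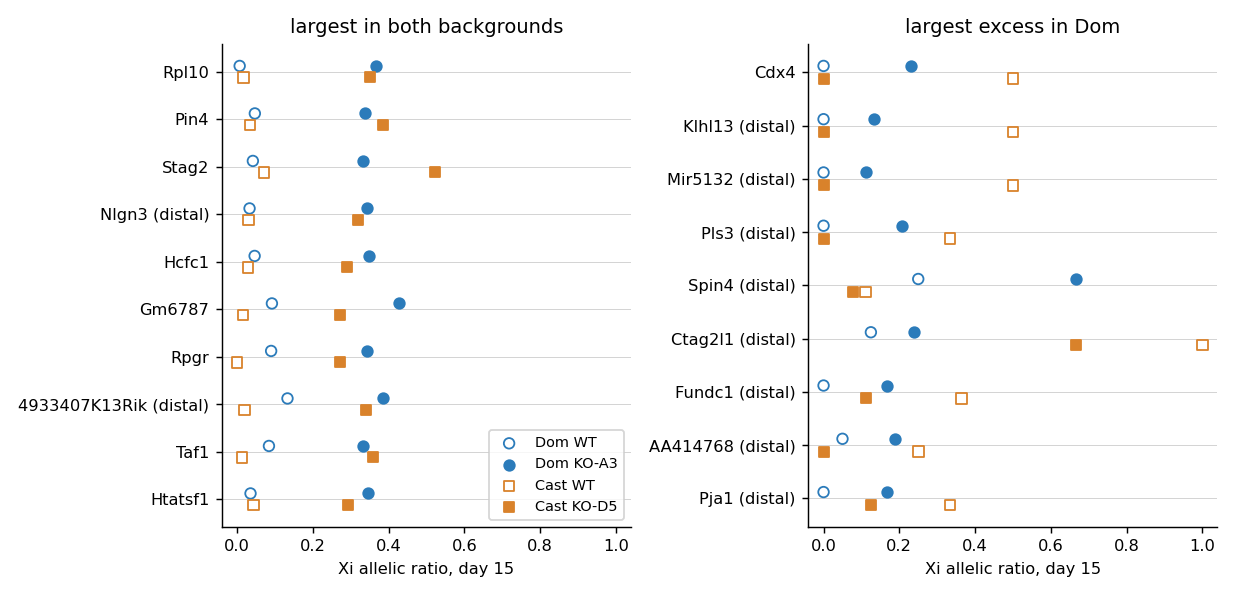
Xi allelic ratios on day 15 in each of the 4 lines (1 library each) for the 10 shared peaks with the largest KO minus WT in both backgrounds (left) and for 9 of the 10 with the largest excess of the Dom over the Cast difference (right). In the left panel all WT symbols (hollow) sit at 0.133 or below and all KO symbols (filled) at 0.272 or above, while in the right panel the hollow Cast WT square lies right of the filled Cast KO-D5 square in all 9.

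No peak passed when limma was fitted to the 4 day 15 libraries with the background as a block. The smallest adjusted p was 0.146, and 52 peaks had an unadjusted p under 0.05, of which 49 were higher and 3 lower in KO. A second fit took the spread from days 5, 7 and 15 together, over 12 libraries, which treats libraries of the same line on different days as independent. It called 38 peaks on day 15 (11%), all of them higher in KO and all among the 55. Of the 38, 33 were YY1-binding and 28 were YY1-binding promoters. Their fitted differences ran from 0.178 to 0.371, with adjusted p from 0.0162 to 0.0488 in limma.
Rpl10 differed by 0.346 (standard error 0.0542), Pin4 by 0.321 (0.0439), Taf1 by 0.298 (0.0458) and Hcfc1 by 0.281 (0.0423), each with an adjusted p of 0.0162 from limma. Stag2 had the largest difference, 0.371 (standard error 0.066, adjusted p = 0.0201 from limma). Among the 10 smallest p of this fit were also Ftsj1, a tRNA methyltransferase (8251975 to 8253118), at 0.0222 in Dom WT, 0.409 in KO-A3, 0.0526 in Cast WT and 0.295 in KO-D5, and Atp6ap1, an accessory subunit of the vacuolar ATPase (74296512 to 74297654), at 0.00787, 0.346, 0.0189 and 0.257. With the spread of days 7 and 15 alone the fit called 16 peaks, all among the 38. On day 0, 15 of the 38 peaks differed between KO and WT by 0.1 or more in either direction in at least 1 background. Such day 0 differences were common over all 345 shared peaks, with 62 higher and 61 lower in Dom and 44 higher and 59 lower in Cast.

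Over all shared peaks the median distance from the Xist TSS was 50.6 Mb, and over the 55 it was 30 Mb.
The 55 peaks were also richer in CpG. The central 300 bp held a median of 21 CpG in these, 15 in all shared peaks and 15 in those higher in Dom alone by the limit of size. Within YY1-binding promoters the medians were 24 where both backgrounds were higher, 25.5 where Dom alone was and 22 over all of them, so there both classes were alike in this.

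The 55 peaks had mostly parted from WT by days 5 and 7, which the day 15 rule did not use, although in the same lines. Both backgrounds were at least 0.1 higher at 35 of the 55 on day 5 (63.6%, against 23.2% of all shared peaks) and at 41 on day 7 (74.5%, against 28.4%). From day 7 to day 15 their median ratio went from 0.289 to 0.333 in KO-A3 and from 0.268 to 0.239 in KO-D5. The WT medians went from 0.0603 to 0.0488 in Dom and from 0.0588 to 0.029 in Cast. Both KO medians thus stayed far above both WT medians over the last interval.

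**Figure D3:**
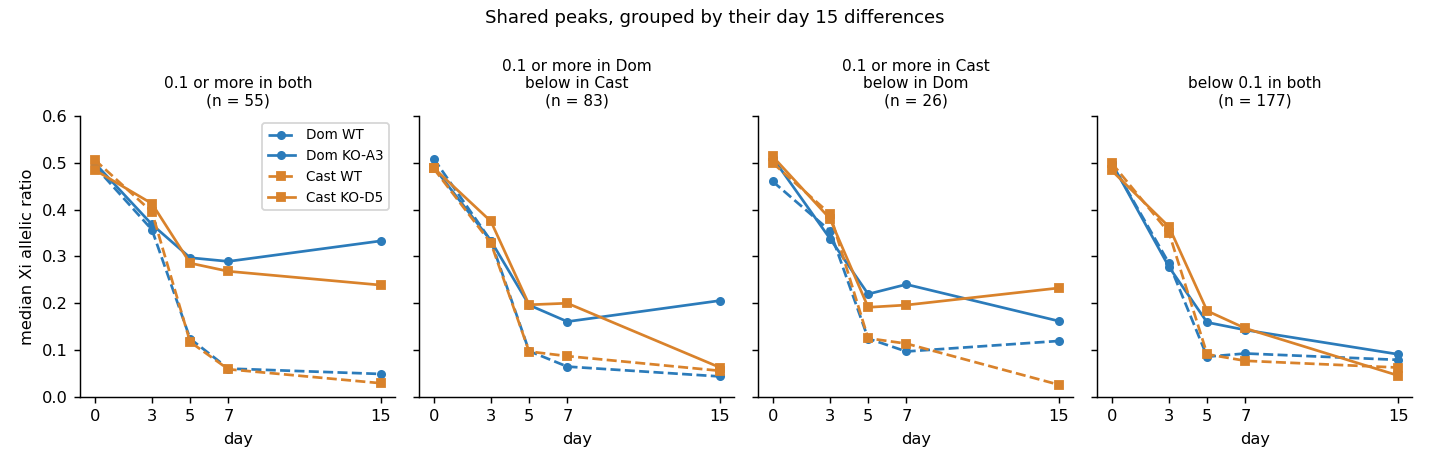
Median Xi allelic ratio by day (0, 3, 5, 7 and 15) in the 4 lines, for shared peaks grouped by their day 15 differences, which fix the order of the lines on that day. In the first panel both KO lines stay above 0.2 from day 5 on. In the second, KO-D5 is at 0.2 on day 7 and 0.0625 on day 15. The 4 peaks lower in both are not drawn.

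At 83 shared peaks KO was at least 0.1 higher in Dom and not in Cast (24.1% of 345), and at 26 the reverse held (7.54%). Their composition was close to that of all shared peaks, with 41 YY1-binding (49.4%, against 57.1%), 43 promoters (51.8%, against 57.4%) and 29 non-YY1 distal peaks (34.9%, against 25.2%). The median ratio was 0.0435 in Dom WT and 0.206 in KO-A3, and 0.0556 in Cast WT and 0.0625 in KO-D5. On day 7, KO-D5 had been at least 0.1 higher at 42 of the 83, against 156 of all 345, with a median of 0.2 in KO-D5 and 0.087 in WT. By the same limit 25 of the 83 had been higher in both backgrounds on day 7 (30.1%, against 28.4% of all shared peaks), so this count was near that of all peaks. In Cast, 46 of the 83 had a day 15 difference of 0 or above but under the limit, and 17 were at least 0.1 lower in KO-D5.

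Passing the limit in Dom and not in Cast is not itself a difference between backgrounds. That was tested in limma with a term for the day 15 difference between backgrounds, over days 5, 7 and 15. It called 13 of 345 shared peaks (3.77%), 12 with the larger KO minus WT in Dom and 1 in Cast. Only 6 of the 83 peaks were among them, and 22 had an unadjusted p under 0.05, so at the other 77 a difference between backgrounds was not shown. No YY1-binding promoter was called, with 5 of 137 at an unadjusted p under 0.05 in limma. Of the 13, 12 had no YY1 mark (148 of all 345 shared peaks) and 11 were distal (147 of all 345). At 12 of them KO-D5 was below Cast WT (132 of all 345), and at 10 KO-D5 was listed at exactly 0 (49 of all 345). A test for a larger Dom difference itself favours peaks with KO-D5 below Cast WT. Under other settings in limma these calls were fewer, 3 with all 5 days and 0 both with days 7 and 15 alone and with logit ratios, where 35 and 54 peaks had an unadjusted p under 0.05.
At the promoter of Cdx4, a homeobox gene near Xist (103321173 to 103322204, coding exon), the ratio was 0 in Dom WT, 0.231 in KO-A3, 0.5 in Cast WT and 0 in KO-D5 (difference between backgrounds 0.731, adjusted p = 0.0299 from limma). A distal peak in an intron of Klhl13, a Cullin-3 adaptor (23296120 to 23296426), had 0, 0.133, 0.5 and 0. Peaks near Mir5132 and in Pls3 had the same order of lines, with 0 in Dom WT and in KO-D5, 0.111 to 0.208 in KO-A3 and 0.333 to 0.5 in Cast WT. The peak near Spin4 (94990297 to 94990810), was high in KO-A3 instead, at 0.25, 0.667, 0.111 and 0.0769. In the other 4 peaks given here the Cast WT value was thus the highest of the lines, and on day 7 it had been lower, between 0.0182 and 0.263.

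The peaks higher in Dom alone by the limit included 30 YY1-binding promoters. At these 30 the median ratio was 0.0236 in Dom WT, 0.2 in KO-A3, 0.0358 in Cast WT and 0.0694 in KO-D5, and KO-D5 did not exceed 0.158 at any of them. The rule for this class holds the Cast difference under 0.1, so low KO-D5 values follow from it where Cast WT is near 0. The largest Dom difference was at Zbtb33, which encodes the methyl-CpG-binding protein Kaiso (38189425 to 38190537, 5′ UTR, chosen after its values were seen), with 0 in Dom WT, 0.387 in KO-A3, 0 in Cast WT and 0.0392 in KO-D5. Its test of the difference between backgrounds had an adjusted p of 0.236 in limma, and its day 0 differences were -0.485 in Dom and 0.357 in Cast. At 15 of the 30, KO-D5 had been at least 0.1 higher on day 7, against 78 of all 137 shared YY1-binding promoters.
The 29 non-YY1 distal peaks of this class had medians of 0.0833 in Dom WT and 0.238 in KO-A3, and of 0.167 in Cast WT and 0.0588 in KO-D5, so that Cast ran the other way. The class rule itself favours low Cast differences. The same signs held over all 87 shared non-YY1 distal peaks, with a median KO minus WT of 0.0462 in Dom and -0.023 in Cast.

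Of the 26 peaks higher in Cast alone by the limit, the 5 with the largest excess were near Gm35612, near Eras, near Stard8, near Tsx and at Gm38438. The peak near Eras, a Ras gene of embryonic stem cells (7937037 to 7937621, coding exon), had 0.267 in Dom WT, 0.222 in KO-A3, 0 in Cast WT and 0.333 in KO-D5. The one near Gm35612 (50549676 to 50550652, intron) had 0.7, 0.308, 0 and 0.267, and it was the single peak called with the larger difference in Cast (-0.659, adjusted p = 0.04 from limma). Dom WT was the highest line there.
The 4 peaks lower in both were distal peaks near Ccdc120, Bcor and 5730405O15Rik and the promoter of Nr0b1, a nuclear receptor (86191588 to 86193092, coding exon), at 0.24 in Dom WT, 0.0588 in KO-A3, 0.333 in Cast WT and 0.2 in KO-D5. The one named by Bcor lay 344786 bp from its TSS. None of the 4 carried the YY1 mark, and none passed either fit (pooled adjusted p from 0.0839 to 0.265 in limma).

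**Figure D4:**
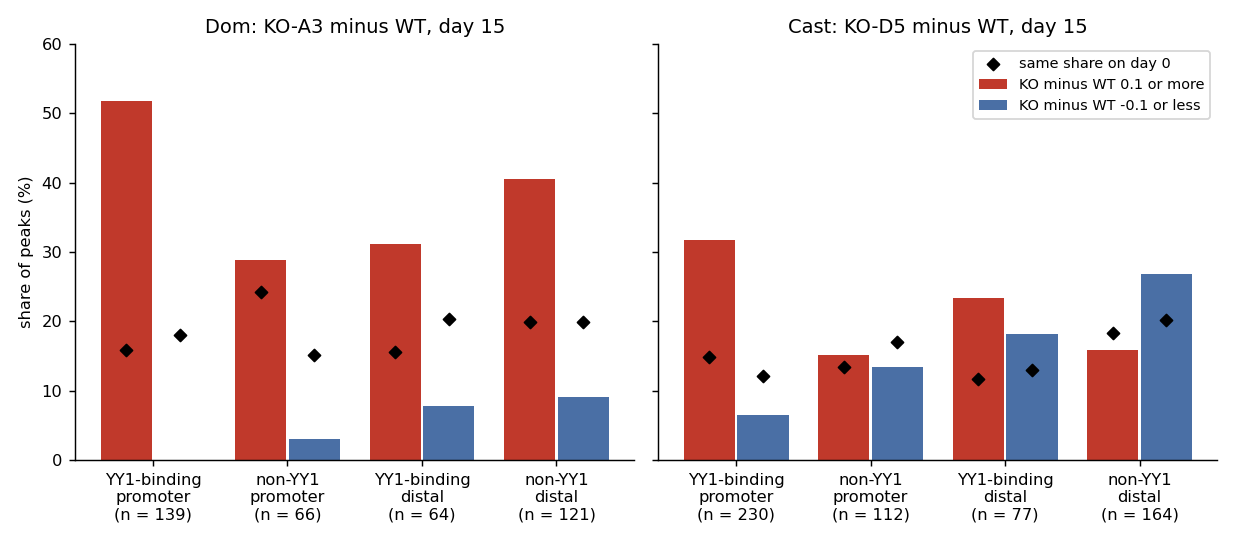
Share of peaks at least 0.1 higher (red) or lower (blue) in KO on day 15, by YY1 mark and distance to a TSS, in the Dom table (left) and the Cast table (right), with black diamonds for the same shares on day 0. YY1-binding promoters have the tallest red bars, 51.8% in Dom and 31.7% in Cast, and at non-YY1 distal peaks the order of the bars turns between the tables, 40.5% higher and 9.09% lower in Dom against 15.9% and 26.8% in Cast.

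Across all peaks of each table, YY1-binding promoters were the group most often higher in KO of the 4 formed by YY1 mark and distance. In Dom, 72 of 139 were higher and 0 lower, and in Cast, 73 of 230 were higher and 15 lower. Their median KO minus WT was 0.102 in Dom and 0.0384 in Cast. Non-YY1 distal peaks gave 49 higher and 11 lower of 121 in Dom, and 26 higher and 44 lower of 164 in Cast. These counts are descriptions over peaks of 1 library pair each.

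The authors sorted X-linked genes by speed of silencing, a class taken from chromatin RNA-seq, and by dependence on SmcHD1. Here each peak took the classes of the gene with the nearest TSS. Where its own background gave none, the class from the other background was used. KO minus WT on day 15 followed both orders in both tables. The median was 0.0278 at fast, 0.0899 at intermediate and 0.12 at slow-silencing genes in Dom, and -0.0161, 0.0303 and 0.0543 in Cast. At SmcHD1-dependent genes it was 0.171 in Dom and 0.0928 in Cast, at partially dependent genes 0.103 and 0.0314, and at genes not dependent 0.033 and -0.0103. How the SmcHD1 classes were drawn is not given in the sources used here, so they cannot be taken as independent of the comparison.
Among shared peaks, 13 of 30 at SmcHD1-dependent genes (43.3%) and 25 of 84 at partially dependent genes (29.8%) were higher in both backgrounds, against 1 of 82 at genes not dependent (1.22%), a distal peak near Nhsl2. The pooled fit called 11, 17 and 1 of these. Peaks higher in Dom alone by the limit did not follow the classes in this way, with 7 of 30, 19 of 84 and 23 of 82. Of the latter 23, 6 were distal peaks whose nearest TSS was that of Bcor, a Polycomb-associated corepressor, at 965 to 276691 bp.

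**Figure D5:**
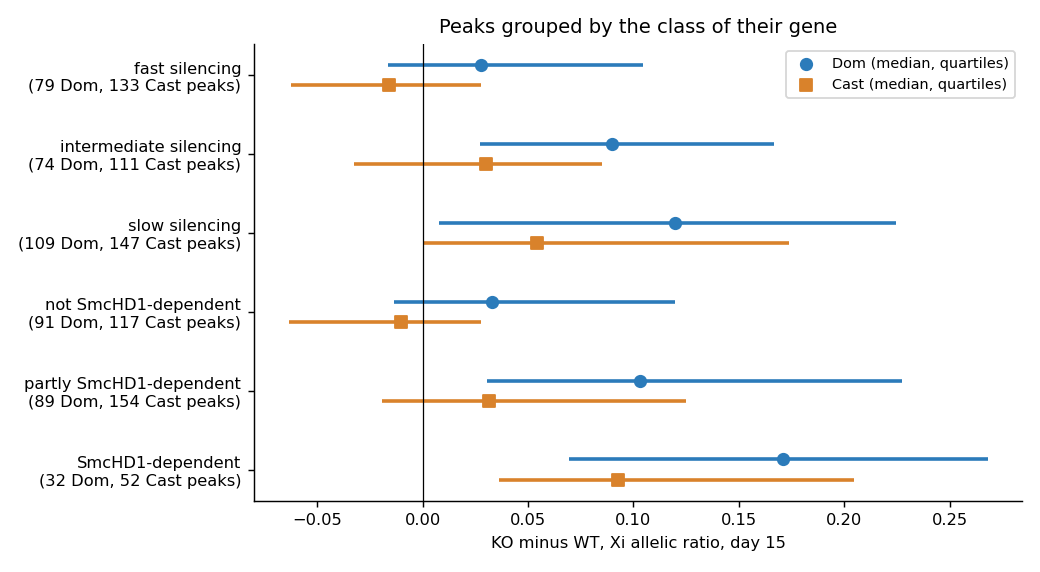
Median (point) and quartiles (line) over peaks of KO minus WT in Xi allelic ratio on day 15, by silencing class and by SmcHD1 dependence of the assigned gene, for Dom (blue circles) and Cast (orange squares). In both tables the medians increase from fast to slow silencing and from no dependence to dependence, and each Dom median lies above its Cast median.

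Named groups of genes were counted at the shared peaks, to be read against 15.9% higher in both and 11% called by the pooled fit. Of 50 peaks at chromatin and transcription regulators, 10 were higher in both and 7 were called, among them Suv39h1, a histone H3 lysine methyltransferase, Nkap, Stag2, Hcfc1, Taf1 and Ogt, the O-GlcNAc transferase. Of 21 peaks at genes of RNA processing and translation, 7 were higher in both and 6 called, at Timm17b, Ftsj1, Rbmx2, Htatsf1, Fmr1 and Rpl10. The Timm17b peak stood in this list through Pqbp1, a splicing factor that shares the promoter, and in the next through Timm17b, a subunit of the mitochondrial import machinery.
Mitochondrial and metabolic genes had 4 of 15 higher in both and 4 called, Idh3g and Timm17b among them. Genes of membrane and vesicle traffic had 6 of 20 higher in both and 4 called, among them Vma21, Idh3g and Atp6ap1, of which Idh3g, a subunit of mitochondrial isocitrate dehydrogenase, entered through Ssr4, which shares its promoter. In the list of architectural loci, 1 of 16 was higher in both and called, the distal peak near 4933407K13Rik. That peak entered the list through its nearest TSS and lies outside the Dxz4 window. No shared peak within the Firre, Dxz4 and Xist windows was higher in both or called. Neuronal and neural progenitor genes had 2 of 18 higher in both, both called, at distal peaks near Wdr45 and Nlgn3. The X inactivation centre, with 7 peaks, and the reproductive gene clusters, with 2, had none higher in both and none with an unadjusted p under 0.05 in the pooled limma fit, while Cdx4, of the former, was called by the test between backgrounds.

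Known escapees are genes that remain expressed from Xi in normal cells. None of their 11 shared peaks was called by the pooled fit, and the test between backgrounds called 1, the distal Ddx3x peak from 13297232 to 13297721. By the limit 1 was higher in both and 4 in Dom alone, and 3 had an unadjusted p under 0.05 in the pooled limma fit. The promoter of Eif2s3x, a translation initiation factor subunit (94212067 to 94213772), had 0.41 in Dom WT, 0.318 in KO-A3, 0.421 in Cast WT and 0.411 in KO-D5. That of Ddx3x, an RNA helicase (13279999 to 13282319, intron), had 0.316, 0.393, 0.347 and 0.361. Both kept ratios of 0.316 or more in all 4 lines.
Kdm6a, a histone demethylase (18161559 to 18164447, 5′ UTR), was the escapee promoter higher in both, with 0.137, 0.267, 0.112 and 0.275 (pooled difference 0.146, standard error 0.0427, adjusted p = 0.0829 from limma). Kdm5c, seen in Cast alone, had 0.407 in WT and 0.341 in KO-D5, and Slc25a5, likewise, 0 and 0.0714. Ogt (101639278 to 101641305, coding exon) had 0.029 in Dom WT, 0.327 in KO-A3, 0.0182 in Cast WT and 0.24 in KO-D5. At Pdk3, a pyruvate dehydrogenase kinase (93831448 to 93832671, 5′ UTR), all 4 lines were near 0, at 0.0115, 0.0211, 0.0556 and 0.0148. The Bcor promoter from 12078273 to 12082042 had 0.214, 0.292, 0.0488 and 0.1, with a larger difference in Cast on day 7 (0.132 in WT and 0.416 in KO-D5).

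At the Firre, Dxz4 and Xist windows no shared peak was higher in both. In the Firre window, a long noncoding RNA locus with CTCF sites, none of 12 Dom peaks passed the limit in either direction, while in Cast 6 of 11 were lower in KO-D5 and 1 higher. The median ratio was 0.723 in Dom WT, 0.69 in KO-A3, 0.625 in Cast WT and 0.44 in KO-D5, and the median KO minus WT was -0.00946 in Dom and -0.129 in Cast. The widest Cast gap was at an intronic peak from 50597247 to 50597632, with 0.964 in Dom WT, 0.879 in KO-A3, 0.778 in Cast WT and 0.267 in KO-D5. At Dxz4, a macrosatellite locus, 2 of 4 Cast peaks were lower, and their median went from 0.801 in WT to 0.683 in KO-D5, with 0.772 and 0.764 in Dom. None of the 15 shared peaks of the Firre and Dxz4 windows was called by the pooled fit, and 2 in Firre had an unadjusted p under 0.05 in limma.
Around Xist, the median ratio was 0.955 in Dom WT, 0.927 in KO-A3, 0.936 in Cast WT and 0.914 in KO-D5, and no peak passed the limit in either table. The X that carries Xist was thus the open one at its own locus in all 4 lines on day 15.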

How the data were processed

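Allele-specific ATAC-seq of 4 mouse lines on 5 days gave 20 libraries, 1 per line and day. The deposited values are fractions, which the authors made by aligning reads to mm10 (Bowtie2 2.3.5.1, per the submitters' processing notes), splitting them by strain variants, counting both alleles in chromosome X peaks and dividing Xi by Xi + Xa. The depth is thus unknown, and no table column was left unmapped. Peaks within 500 bp of a RefSeq TSS were called promoters, and distal peaks are named by the nearest TSS, at any distance. The YY1 marks and gene classes are the authors', and the gene classes were attached to peaks here by the nearest TSS. Cast libraries were assigned by title and series design, since other fields name the Dom line for them. Differences of 0.1 were counted, and limma 3.58.1 (R 4.3.3) was fitted over 345 shared peaks with Benjamini-Hochberg adjustment at 0.05, after tests on simulated data, in 3 designs (day 15, background as a block; days 5, 7 and 15; the same with a background term). Named peaks were the 10 largest in both backgrounds and in Dom alone, the 5 largest in Cast alone, those lower in both, the 10 smallest p of each fit, the extremes of each table and listed promoters, of which the leading ones are described. Members and lists were chosen with earlier results of these data known. Some genes that enter the counts are not reported here by name.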

Additional observations from a re-analysis of the deposited data

Results flagged for a closer look

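Of the 13 peaks called, the 12 below had a KO minus WT that differed between backgrounds on day 15 by limma's test of that difference over days 5, 7 and 15. The spread in that test came from days 5 and 7 alone, when the Cast differences varied less over peaks than on day 15. All 13 calls were lost in limma with days 7 and 15 alone (adjusted p from 0.352) and with logit ratios (from 0.0565), and 10 of them with all 5 days, and each line has 1 library on day 15. Values are KO minus WT in Dom less KO minus WT in Cast, in Xi allelic ratio. Adjusted p was 0.0249 in limma for 4930402K13Rik (1.07), Ddx3x (0.681), Klhl13 (0.633), Mir5132 (0.611) and Fmr1os (0.576), all distal peaks, and 0.0299 for the Cdx4 promoter (0.731). It was 0.04 for Gm35612 (-0.659) and 0.0414 for Pls3 (0.542), Tmem47 (0.468), the Cfap47 promoter (0.458), Spin4 (0.451) and Efnb1 (0.428).

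At the 11 of them with the larger difference in Dom, Cast WT had 0.0182 to 0.263 on day 7 and 0.111 to 1 on day 15. The peak near 4930402K13Rik had 0.0588 in Cast WT on day 7 and 1 on day 15, and 0.267 and 0 in KO-D5, against 0.2 in WT and 0.273 in KO-A3 in Dom on day 15. The distal Ddx3x peak (13297232 to 13297721) had 0.0625 and 0.667 in Cast WT, and 0.118 and 0 in KO-D5. The peak near Fmr1os had 0.0556 and 0.75, and 0.214 and 0.25. The depth behind these values is unknown, and its part in them was not tested.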

How the results depend on the processing

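Alternatives were run for the counts, the medians, the fits and the peaks those fits called, not for the shares by YY1 mark, gene class, CpG or gene list. None of those run reversed a direction, but the Cast median was 0 under 2 of them. With the limit at 0.2, peaks higher in KO numbered 71 in Dom, 58 in Cast, 21 in both and 38 in Dom alone; with 0.15, 53 were higher in Dom alone. Leaving out peaks at exactly 0 or 1 gave 86 higher in Cast and 37 in Dom alone, and keeping day 0 ratios between 0.35 and 0.65 gave 51 in Dom alone, each from fewer peaks. The Cast count was 81 over shared peaks and 84 up to the last Dom peak. An overlap of 80% or of 1 bp gave the same 55 and 83. The fit over day 15 called 0 peaks under every alternative, also without the background block and without each library in turn (0 to 0, with 15 to 75 at an unadjusted p under 0.05 in limma). The replicate number in the groups is the background, so the main fit is the paired one. The pooled fit called 16 peaks with days 7 and 15, 42 with all 5 days (35 of them among the 38, and 1 called lower in KO), 41 with logit ratios (29, and 1 lower) and 37 with a robust prior (37). The test between backgrounds called 3 peaks with all 5 days (4930402K13Rik, Fmr1os and Cdx4) and 0 with days 7 and 15 or with logit ratios, where the smallest adjusted p from limma was 0.352 and 0.0565. With Cast WT of day 7 in place of day 15, chosen after seeing the data, 50 peaks were higher in both and 88 in Dom alone. Medians of KO minus WT ranged from 0.0593 to 0.0794 in Dom and from 0 to 0.0127 in Cast, and the means were 0.081 and 0.00723.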
